A study of Drosophila melanogaster with 3 samples.

Results

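The cytosolic ribosomal protein genes of Drosophila melanogaster were examined for binding of Row in whole embryos. The 93 genes are the protein-coding genes whose symbol begins with RpL or RpS and a digit, or with RpLP, together with sta, among 13968 protein-coding genes on the chromosome arms (0.666%). The small ribosomal subunit accounts for 39 of them and the large subunit for 54. A total of 80 are single-copy genes or the main copy of a pair, and 13 are paralogs or "like" genes.

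The cytosolic ribosome translates messenger RNA, and each ribosome needs most of its proteins in equal amounts. Their genes are among the most highly transcribed in growing tissue. Loss of 1 copy of many of these genes gives the Minute phenotype of slow development and thin bristles. In flies many of them start transcription at a pyrimidine-rich TCT initiator in place of the usual initiator, and many are housekeeping promoters of the kind bound by the DRE-binding factor Dref. The product of row (relative of woc) carries zinc fingers and forms a complex with WOC and with HP1c, a euchromatic member of the HP1 family.

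The embryos were of the strain row-GFP, 0 to 24 h old, and carried Row fused to eGFP, which was immunoprecipitated with an antibody against GFP and sequenced (ChIP-seq). There was 1 group of 3 biological replicates, labelled as separate biosamples of this single strain, with no second genotype, treatment or age. Sex was not recorded, and the labels do not say whether the embryos also made untagged Row. The 3 replicates listed 10959, 8567 and 7635 peaks at the authors' reproducibility threshold, and the conservative list, used as the main list, held 10483. Read depth is unknown. Whole embryos mix tissues and ages, so a lower signal from fewer bound cells and one from weaker binding per cell cannot be told apart.

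A gene was called bound when a peak summit lay within 500 bp of one of its transcription start sites (TSSs). The TSS is position 0, for a summit the gene's own TSS nearest to it, and negative positions lie upstream of that TSS. The signal value is the authors' enrichment of the peak and is compared within a list alone, so values of different replicates are given as percentiles, the share of a list's peaks with a lower signal. Classes of genes are described beside all protein-coding genes and were not tested, because genes of the same embryos are not replicates.

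The promoters that frame the results are printed first, from the RefSeq sequence of the assembly that dm6 denotes, 5′ to 3′ on the gene's strand and ending 30 bases into the transcript. RpL34b, RpL32, RpS20 and RpS3A have 4 of the strongest summits. RpS5a and RpS5b are a pair of which 1 copy was bound, and RpS3 and RpL13A were not bound. Capitals mark matches on either strand to the DRE (TATCGATA), to its core, the BEAF-32 element (CGATA), to the TATA box, the GAGA element, motif 1 or the motif 5 E-box, and matches to the TCT initiator on the gene's strand with all letters within 10 bp of any annotated TSS of the gene, with the letters of each given where its frequency is reported.
RpL34b (chr3R:9401197-9401382, minus strand): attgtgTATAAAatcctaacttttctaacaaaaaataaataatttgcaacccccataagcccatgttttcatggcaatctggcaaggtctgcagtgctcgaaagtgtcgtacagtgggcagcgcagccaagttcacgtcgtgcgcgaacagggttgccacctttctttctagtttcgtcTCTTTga
RpL32 (chr3R:30046132-30046315, minus strand): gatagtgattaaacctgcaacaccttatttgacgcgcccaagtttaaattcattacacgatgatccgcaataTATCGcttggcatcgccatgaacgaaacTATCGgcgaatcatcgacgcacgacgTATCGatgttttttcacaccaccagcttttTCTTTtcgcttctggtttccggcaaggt
RpS20 (chr3R:20821948-20822210, plus strand): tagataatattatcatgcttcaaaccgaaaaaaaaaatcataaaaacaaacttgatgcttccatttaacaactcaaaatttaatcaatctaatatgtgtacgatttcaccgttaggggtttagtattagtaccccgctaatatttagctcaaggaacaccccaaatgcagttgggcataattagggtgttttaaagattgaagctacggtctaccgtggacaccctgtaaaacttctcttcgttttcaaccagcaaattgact
RpS3A (chr4:67178-67357, minus strand): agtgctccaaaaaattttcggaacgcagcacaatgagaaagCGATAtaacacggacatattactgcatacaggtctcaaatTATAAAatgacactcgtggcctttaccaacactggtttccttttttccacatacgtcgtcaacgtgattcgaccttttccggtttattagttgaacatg
RpS5a (chrX:17148235-17148438, minus strand): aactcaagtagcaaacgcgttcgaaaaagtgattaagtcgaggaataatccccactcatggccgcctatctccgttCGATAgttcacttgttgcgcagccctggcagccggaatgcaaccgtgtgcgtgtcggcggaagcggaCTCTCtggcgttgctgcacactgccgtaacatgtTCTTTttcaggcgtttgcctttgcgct
RpS5b (chr3R:14901534-14901713, minus strand): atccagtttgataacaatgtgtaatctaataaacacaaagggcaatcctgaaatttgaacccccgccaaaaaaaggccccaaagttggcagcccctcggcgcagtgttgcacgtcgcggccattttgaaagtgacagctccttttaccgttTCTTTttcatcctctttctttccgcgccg
RpS3 (chr3R:23358662-23358841, plus strand): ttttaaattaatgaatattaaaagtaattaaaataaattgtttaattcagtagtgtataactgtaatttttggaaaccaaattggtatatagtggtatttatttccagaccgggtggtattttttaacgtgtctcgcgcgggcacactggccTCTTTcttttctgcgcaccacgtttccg
RpL13A (chr3R:5624324-5624503, plus strand): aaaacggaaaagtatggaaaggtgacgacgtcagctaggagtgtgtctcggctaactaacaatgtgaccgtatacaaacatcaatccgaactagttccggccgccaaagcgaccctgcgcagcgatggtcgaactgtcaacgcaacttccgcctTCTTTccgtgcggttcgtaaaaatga

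In the window of RpL34b a TATA box letter match begins at position −150 and a TCT match at 23, which is next to another TSS of that gene. A further TCTTT at 7 to 11 runs past the 10 bp allowed and is not marked, and neither are such further matches in RpS5b and RpS3. RpL32 holds 3 CGATA matches, at −82, −54 and −28, and a TCT match at 2, while its summit lies at −114. The window of RpS3A has CGATA at −109, the same position as its summit, and TATAAA at −69. RpS20 has none of the searched letters. RpS5a and RpS5b both carry the TCT letters, at 3 and 1, and so do the unbound RpS3 at 2 and RpL13A at 4. The TCT letters did not separate the bound from the unbound promoters shown.

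Row summits were listed at most ribosomal protein promoters. In the conservative list 77 of the 93 genes (82.8%) were bound, against 36.4% of all protein-coding genes. Replicate 1 listed 75 of them (80.6%, against 40.3% of all genes), replicate 2 listed 69 (74.2%, against 32.0%) and replicate 3 listed 66 (71%, against 32.8%). The mean share was 75.3% ± 4.93 (SD, n = 3) for ribosomal protein genes and 35% ± 4.57 for all genes, so the gap was wider than the spread between replicates. All 3 replicates listed a promoter summit at 60 of the genes (64.5%), against 28.5% of all genes. The 77 strongest summits belonged to 77 different peaks, and the genes held no summit within their bodies outside the promoter window.

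**Figure D1:**
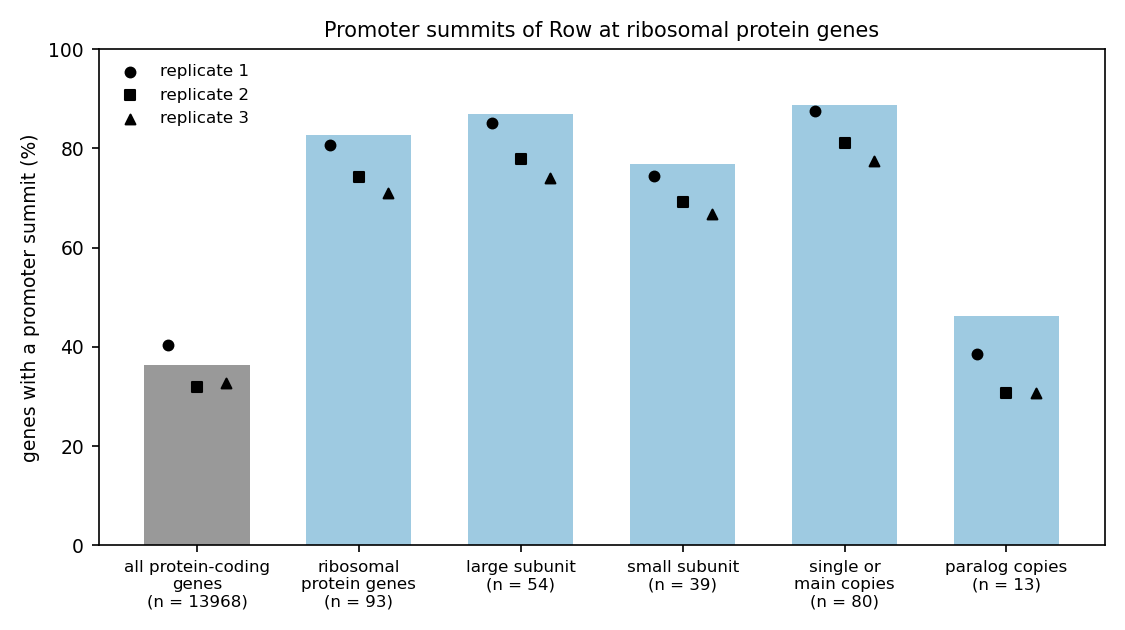
Share of genes with a promoter summit (%, linear axis from 0) among all protein-coding genes and in classes of ribosomal protein genes. Bars give the conservative list and the 3 symbols give replicates 1, 2 and 3; the symbols of every ribosomal protein class except the paralog copies lie at 66.7% or higher, and those of the paralog copies between 30.8% and 38.5%, with the bar at 46.2%.

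A neighbouring gene can own a summit that falls in the same window. Counting a summit for the gene with the nearest TSS alone left 69 bound ribosomal protein genes (74.2%), against 28.2% of all genes. Of the 55 that have no TSS of another protein-coding gene within 500 bp, 45 (81.8%) were bound, against 24.9% of all such genes. A divergent TSS, one on the opposite strand at the same promoter, was present at 37 of the genes (39.8%, against 27.3% of all genes). Of these 37, 31 (83.8%) were bound, against 66.0% of all genes with a divergent TSS. Without one, 46 of 56 (82.1%) were bound, against 25.3% of all such genes. The shares of ribosomal protein genes with and without a divergent TSS were 86.5% and 76.8% in replicate 1, 67.6% and 78.6% in replicate 2, and 73% and 69.6% in replicate 3, so their order differed between replicates.

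The bound promoters were of middling strength. Their median signal was 424, against 507 over all bound genes, and their median percentile in the main list was 65.4, against 71.4. The median signal with a divergent TSS was 424, against 631 over all such bound genes, and without one 407, against 430.4. In the replicates the median percentiles were 63.3, 55.5 and 60.3, against 66.9, 68.9 and 69.1 for all bound genes, lower in each. The quartiles of signal over all bound genes were 253, 507 and 1016. Below, between and above them lay 24, 22, 24 and 7 of the ribosomal protein genes in rising order, so that 9.09% exceeded the upper quartile. The strongest of them ranked 367 in the list.

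The highest signal belonged to RpL34b (large subunit), with 1902. Its summit was at −116 and its percentiles were 95.8, 95.5 and 96.0 in replicates 1, 2 and 3. RpL26, whose product lies near the exit of the peptide tunnel, had a signal of 1665 and percentiles of 87.7, 95.3 and 96.3. Its summit lay inside the gene, in an intron, at position 63, and at 73, 67 and 36 in the replicates. RpL32, long used as a reference gene under the name rp49, had 1651 at −114, with percentiles of 95.1, 94.0 and 94.5. RpS20 (small subunit) had 1581 at −193, nearer to the TSS of its divergent neighbour CG17271, with percentiles of 95.6, 92.7 and 93.7. The lowest of the percentiles of these 4 genes was 87.7, for RpL26 in replicate 1.

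Next were RpS3A, RpS4, RpS21 and RpL31. RpS3A, the single ribosomal protein gene on the fourth chromosome, had a signal of 1196 at −109 and percentiles of 88.9, 89.9 and 91.5. RpS4 had 1065 at −94, with percentiles of 83.5, 85.4 and 91.2. RpS21 and RpL31 followed with 1039 at −48 and 995 at −84. The lowest percentile of these 4 genes in any replicate was 83.2, for RpL31 in replicate 2.

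The 5 lowest signals were near the bottom of the list. RpS10a and RpS19a both had 121, RpS28a 128, RpLP2 130.2 and RpS18 143. RpS10a and RpLP2 had no promoter summit in any replicate's thresholded list. RpS19a was listed in replicate 2 alone, at percentile 6.49, RpS18 in replicate 1 alone, at 26.4, and RpS28a in replicates 1 and 3, at 5.78 and 6.70. None of these 5 was listed by all 3 replicates.

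Of the 77 bound genes, 60 were listed in 3 replicates, 11 in 2, 4 in 1 and 2 in none. In alphabetical order, the first 6 of the incomplete ones are RpL17, RpL22, RpL27, RpL29, RpL35A and RpL36. RpL27 and RpL29 were listed in replicate 1 alone, at percentiles 45.7 and 31.7. RpL17 and RpL22 were missing from replicate 3, RpL36 from replicate 2 and RpL35A from replicate 1. Many weak entries shared a peak width. A width of 436 bp was the commonest in the main list, held by 4321 peaks (41.2%) with a median signal of 153, against 494 for the rest. The 19 ribosomal protein genes with such a peak include 6 listed in all 3 replicates, and the 58 with another width include 54. The part of the fixed width in these counts was not tested.

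**Figure D2:**
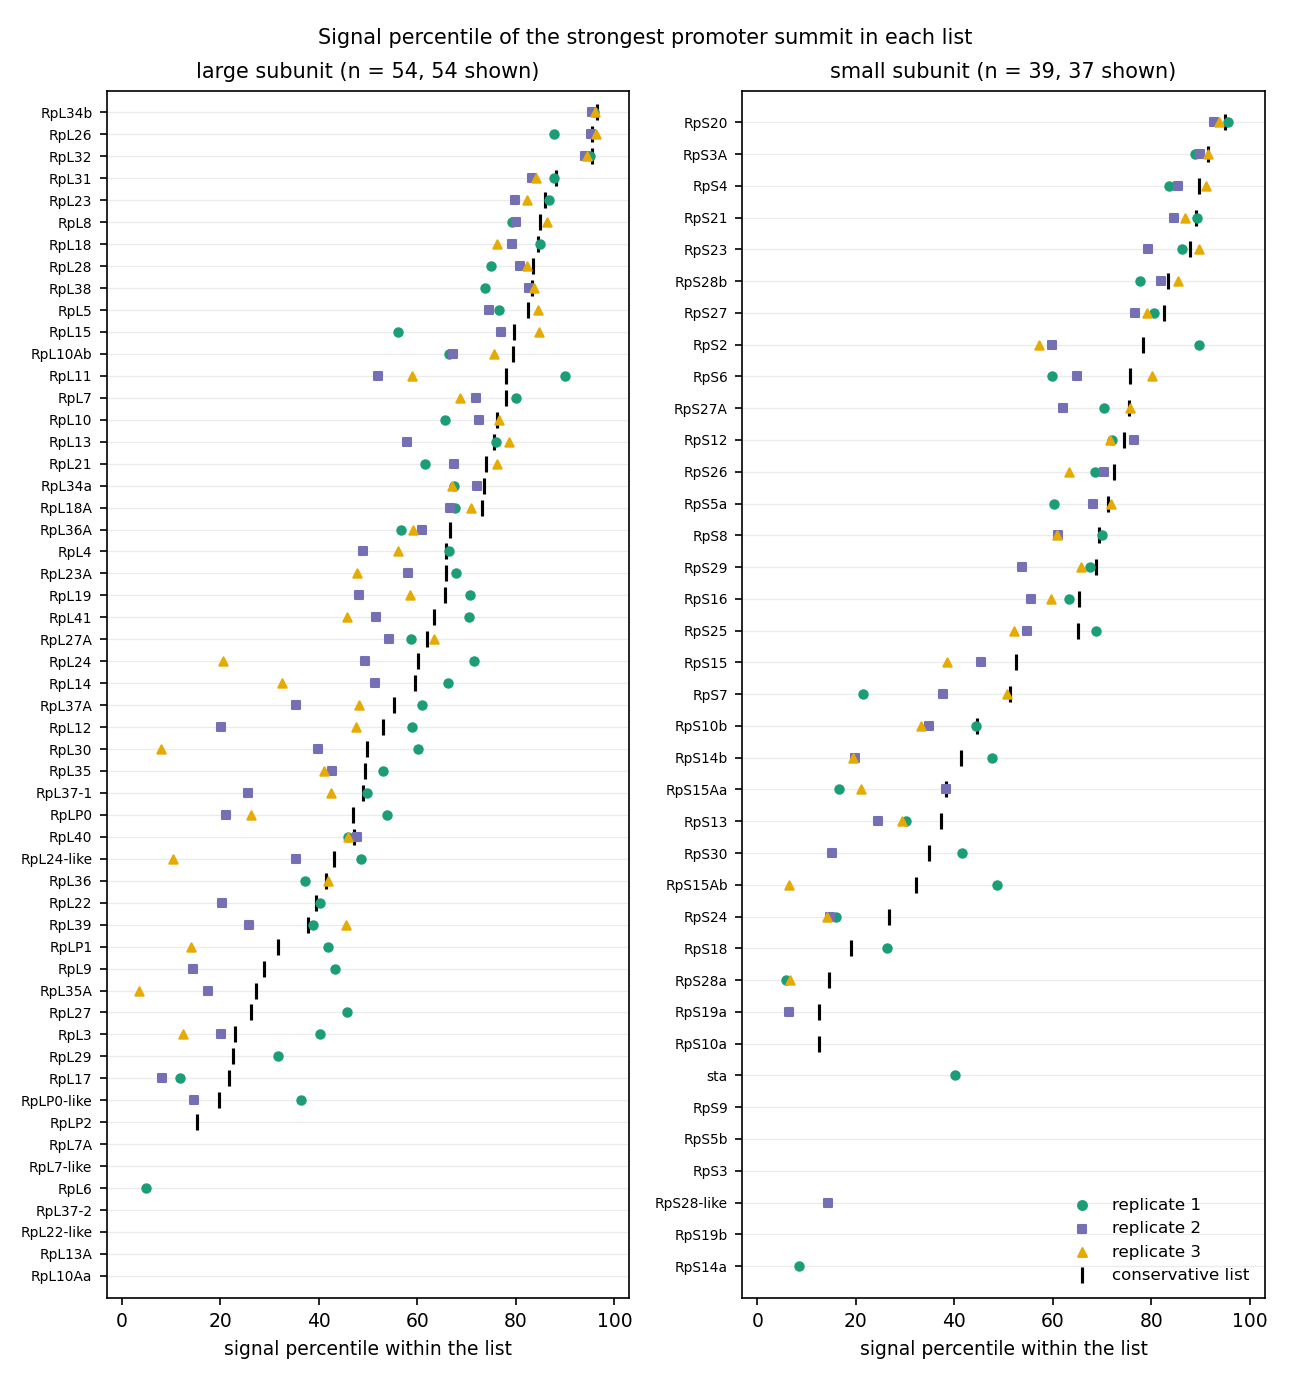
Signal percentile (0 to 100, within each list) of the strongest promoter summit of each large-subunit (n = 54) and small-subunit (n = 39) gene, ordered by signal in the conservative list, with a few genes not shown. Coloured symbols give replicates 1, 2 and 3 and black bars the conservative list; a gene with no symbol had no promoter summit, and RpL34b, at the top of its panel, lies at 95.8, 95.5 and 96.0.

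Over the 60 genes listed in every replicate, the median SD of the percentile was 5.66. Single genes departed further. RpL11, which with RpL5 carries the 5S ribosomal RNA, was at percentile 90 in replicate 1 but at 52.1 and 59 in replicates 2 and 3. RpS2 was likewise at 89.6, 59.9 and 57.1. RpL15 went the other way, at 56.1, 77 and 84.7. These 3 genes were chosen after their values were seen.

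The counts of bound genes were compared between the subunits. In the conservative list 47 of 54 large-subunit genes (87.0%) and 30 of 39 small-subunit genes (76.9%) had a promoter summit, against 36.4% of all genes. The shares were 85.2%, 77.8% and 74.1% for the large subunit in replicates 1, 2 and 3, and 74.4%, 69.2% and 66.7% for the small. Their means were 79.0% ± 5.66 and 70.1% ± 3.92 (SD, n = 3), against 35% ± 4.57 for all genes. The large subunit was higher in each replicate, and both shares fell from replicate 1 to replicate 3. The means differed by less than the sum of the SDs. Those SDs include the shared fall, so they do not measure the spread of the difference within replicates. Median signals ran the other way, 397 for bound large-subunit and 447 for bound small-subunit genes. Without the paralogs the counts were 44 of 47 and 27 of 33. With peaks that overlap all 3 replicates by 50% of the width the shares were 59.3% and 59%, against 25.2% of all genes. With the pooled list they were 87% and 84.6%, against 42.7%, so the difference was small under these settings. The large-subunit share was higher under the other settings. At a global IDR of 0.001 the shares were 75.9% and 56.4%, against 29.2% of all genes. With the nearest gene alone they were 77.8% and 69.2%, against 28.2%. The size of the difference thus depended on the setting.

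The ribosomal stalk, which recruits the translation factors that hydrolyse GTP, is built from the products of RpLP0, RpLP1 and RpLP2. All 3 genes were bound at low signal. RpLP0 had 261 at −77 from an internal TSS, in an intron of the gene, with percentiles of 53.9, 21.2 and 26.2. RpLP1 had 189 at −166, nearer to the TSS of CG13690, with percentiles of 41.9 in replicate 1 and 14.0 in replicate 3. RpLP2 had 130.2 at −148 and no replicate entry. All 3 lay below the median of the bound ribosomal protein genes.

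Paralogs were bound less often than main copies in these lists. Of 80 single-copy and main-copy genes, 71 (88.8%) had a promoter summit, and of 13 paralogs, 6 (46.2%). Over the replicates the means were 82.1% ± 5.05 and 33.3% ± 4.44 (SD, n = 3). The paralog share was 38.5%, 30.8% and 30.8% in replicates 1, 2 and 3, against 87.5%, 81.2% and 77.5% for the main copies, with no overlap. Over all genes it was 40.3%, 32.0% and 32.8% in the replicates and 36.4% in the conservative list. The paralogs were thus near the share of all genes in each replicate, and the main copies were above it. Several of the paralogs, such as RpS5b and RpL22-like, are known for expression in the germline.

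Set beside its main copy, each of the 13 paralogs was either unbound or the weaker of the pair. Both copies were bound in 6 comparisons, and the main copy had the higher signal in all 6. The main copy alone was bound in the other 7. RpL34b had 1902 and RpL34a 544, which was the strongest paralog and was listed in every replicate at percentiles 67.4, 72.1 and 67.1. RpS28b had 777, RpS28a 128, and RpS28-like had no summit in the main list. RpL24 had 362 and RpL24-like 239, RpLP0 261 and RpLP0-like 145, RpS10b 247 and RpS10a 121, and RpS15Aa 217 and RpS15Ab 191. RpS15Aa and RpS15Ab differed little, and their replicate percentiles overlapped, at 16.7, 38.3 and 21.1 for the first and 48.7 and 6.39 for the second in replicates 1 and 3.

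The pairs with a single bound copy were RpL7 (631) with RpL7-like, RpL10Ab (672) with RpL10Aa, RpL22 (223) with RpL22-like, RpL37-1 (273) with RpL37-2, RpS5a (505) with RpS5b and RpS19a (121) with RpS19b. RpS5a, whose promoter is printed above beside that of RpS5b, had percentiles of 60.3, 68.1 and 71.8 and a summit at −131, −138 and −134. RpS5b, the ovary-enriched copy, had no thresholded summit in any replicate. RpL7-like, RpL24-like and RpLP0-like resemble yeast ribosome assembly factors more than ribosome constituents, and 2 of these 3 were bound. RpS14a and RpS14b encode the same protein and stand next to each other. RpS14b had a signal of 231 and was listed in every replicate, while RpS14a was listed in replicate 1 alone, at percentile 8.40.

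**Figure D3:**
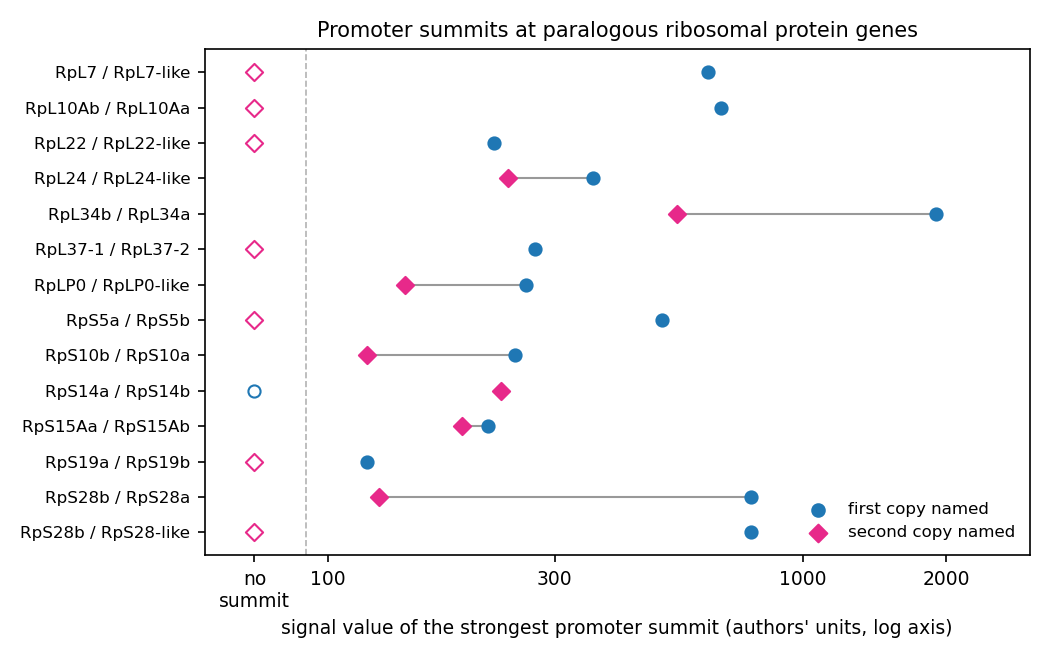
Signal value of the strongest promoter summit (log axis, authors' units, conservative list) for both members of each paralog pair, joined by a line where both were bound; open symbols left of the dashed line have no promoter summit. The first copy lies right of the second in every joined pair, and RpS14a / RpS14b is the single row in which the first copy is the unbound one.

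Of the 7 paralogs with a divergent TSS, 5 were bound (71.4%), and of the 6 without, 1 was (16.7%). These shares are near those of all genes, 66.0% and 25.3%. The 5 are RpL24-like with CG5276, RpL34a with Trmt61, RpLP0-like with 14-3-3zeta, RpS15Ab with Lsm10 and RpS28a with Axn. RpS10a is the bound paralog without a divergent TSS. Among main copies the counts were 26 of 30 with a divergent TSS and 45 of 50 without. In the replicates the paralogs with a divergent TSS numbered 5, 3 and 4, and those without numbered 0, 1 and 0. This split was made after the values were seen.

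The 16 unbound genes were 9 main copies and 7 paralogs. The main copies include RpL6, RpL7A and RpL13A of the large subunit and RpS3, RpS9, RpS14a and sta of the small. The paralogs are RpL7-like, RpL10Aa, RpL22-like, RpL37-2, RpS5b, RpS19b and RpS28-like. Their nearest summit was 527 to 23268 bp away, with a median of 2592 bp. RpS28-like and RpL7A came closest to the window, at 527 and 538 bp, and RpL22-like was the farthest.

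No unbound gene was listed in more than 1 replicate, and 12 were listed in none. The exceptions in replicate 1 were RpL6 at percentile 4.83, RpS14a at 8.40 and sta at 40.1, and in replicate 2 RpS28-like at 14.4, with its summit at 474. The product of sta is a small-subunit protein related to the laminin receptor precursor, and its replicate 1 summit lay at −12. In the full ranked lists the picture differed. The ranked lists, which hold all peaks of a replicate, had a promoter summit at 88, 89 and 83 of the 93 genes (94.6%, 95.7% and 89.2%), against 65.6%, 52.2% and 52.5% of all genes. Of the 16 unbound genes, 6 were in every replicate's ranked list and 3 in none, namely RpL10Aa, RpL22-like and RpL37-2, all paralogs. RpL13A ranked 4760, 7200 and 6213 in those lists, higher than any other unbound gene present in all 3. Its score was 1000, the maximum, in each of them, while the lowest score of the thresholded lists was 830. Why the thresholded lists lack RpL13A is not stated in the sources.

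Where the summit lay was similar across the genes. The median position was −83 bp (quartiles −116 and −40), against −116 bp (quartiles −206 and −60) over all bound genes. Of the 77, 55 (71.4%) had the summit between −150 and −1, against 52.7% of all bound genes. Another 12 (15.6%, against 37.7%) lay farther upstream, and 10 (13%, against 9.59%) at the TSS or downstream of it. The summits of ribosomal protein genes were closer to the TSS in each replicate, with medians of −67, −92 and −97, against −105, −127 and −118. Within a gene the SD of the position over replicates had a median of 19.6 bp, and it was at most 20 bp in 33 of the 60 genes and over 50 bp in 7.

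**Figure D4:**
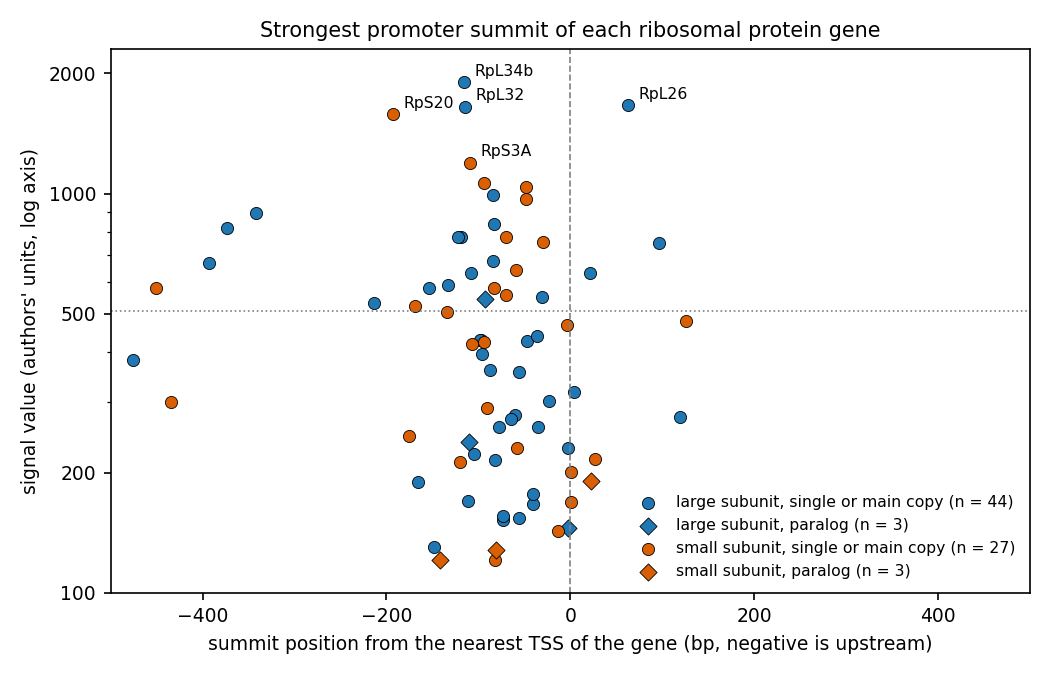
Signal value (log axis, authors' units) against position from the nearest TSS of the gene (bp, negative is upstream) for the strongest promoter summit of 77 ribosomal protein genes. Colour gives the subunit, diamonds are paralogs and the dotted line is the median signal of all bound genes, 507; 55 summits stand between −150 and −1, and most of the points are below the dotted line.

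The summit was outside the gene in 65 cases, in an exon in 8 and in an intron in 4. RpLP0 at −77 and RpS16 at −94 are among those inside the gene, because their positions are counted from an internal TSS. A gene's own TSS was the nearest to its summit in 65, and that of another gene in 12. Among the latter, RpL13 shares its promoter with Dref, the gene of the DRE-binding factor, and its summit at −154 was nearer to Dref. The strongest summit in the window of RpS6, whose product is the substrate of S6 kinase, lay at −451 and was nearer to bys, a ribosome assembly gene. RpL10Ab, RpL18 and RpL23 also had their strongest summit far upstream, at −393, −373 and −342, and RpL27A and RpS15 had theirs at −476 and −434. RpS6, RpL10Ab and RpL23 had a second, weaker summit nearer to a TSS, at a distance of 77, 191 and 129 bp. These genes were named after their positions were seen.

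By chromosome arm, 17 of 19 genes were bound on 2L, 18 of 21 on 2R, 12 of 14 on 3L, 17 of 23 on 3R and 12 of 15 on X. The shares of all genes bound on these arms were 34.7%, 35.9%, 35.7%, 35.1% and 41.9% in the same order. Among the arms with over 1 ribosomal protein gene, the median signal of the bound ones was lowest on X, at 239, and highest on 3L, at 674. Over all bound genes it was 387 on X and 599 on 3L, which are the lowest and the highest of those 5 arms as well. Introns of ribosomal protein genes often hold snoRNAs, small RNAs that guide the modification of ribosomal RNA. Of the 29 genes that host a snoRNA, 24 (82.8%) were bound, as were 53 of the other 64 (82.8%), with median signals of 474 and 303. Of all genes 36.4% were bound, with a median signal of 507, above both of these medians.

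The DRE, CGATA and TCT letters were commoner at ribosomal protein promoters. The DRE, TATCGATA, was present between 250 bp upstream and 50 bp downstream of the TSS in 28 of the 93 (30.1%), against 8.94% of all genes and 15.4% of all bound genes. CGATA, which is the BEAF-32 element and is contained in the DRE, was in 71%, against 46.9% of all genes and 57.1% of all bound genes. The TCT initiator, TCTTT within 10 bp of the Ensembl canonical TSS on the gene's strand, was in 36 (38.7%), against 2.20%. With any annotated TSS of a gene, a choice added after seeing the data that gives RpL32 a match, it was in 51 (54.8%), against 3.20%. The core of Ohler motif 1, GGTCACAC, was in 15.1%, against 7.52%. Among bound genes it was in 11.7% of the ribosomal protein genes and 12.6% of all, so there was no excess there. TATAAA was equally frequent (45.2% and 45.3%), and GAGAG (17.2%, against 30.2%) and CAGCTG (9.68%, against 17.9%) were rarer. Both strands were searched except for TCTTT.

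**Figure D5:**
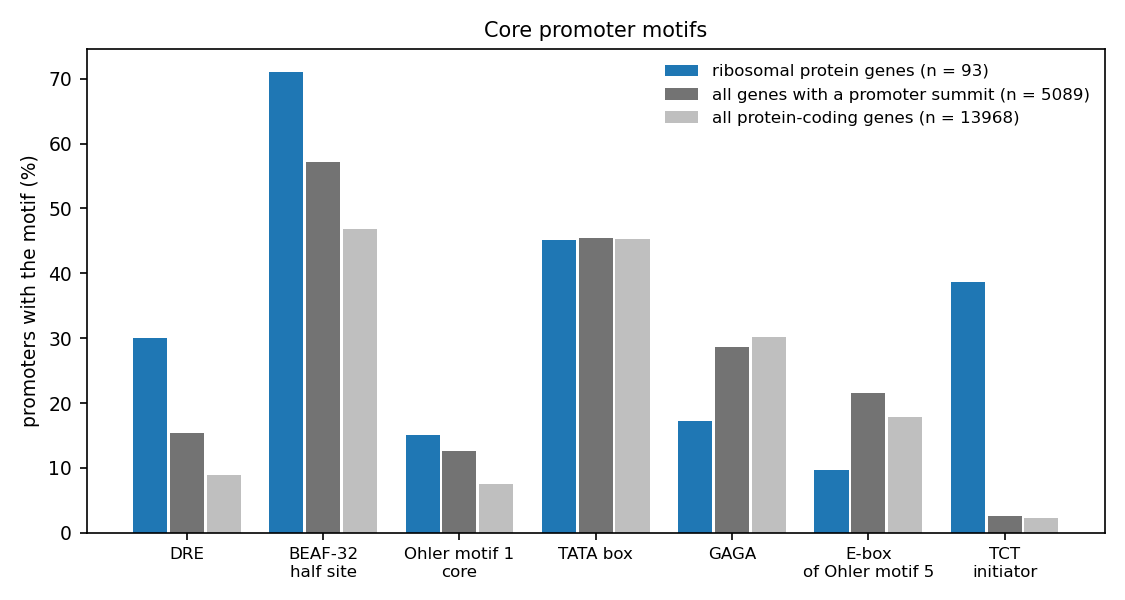
Share of promoters (%, linear axis from 0) that contain each core promoter motif, for the 93 ribosomal protein genes, 5089 genes with a promoter summit and 13968 protein-coding genes. The bars of the ribosomal protein genes exceed both others for the TCT initiator (38.7%, against 2.53% and 2.20%) and the DRE (30.1%, against 15.4% and 8.94%). They also do so for CGATA (71%, against 57.1% and 46.9%) and motif 1 (15.1%, against 12.6% and 7.52%). They are level with the others for the TATA box and shorter for the GAGA element and the E-box.

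The share of bound genes was compared with and without each motif. With a DRE 25 of 28 ribosomal protein genes were bound (89.3%), and without one 52 of 65 (80.0%). Over all genes the shares were 62.7% and 33.9%. For the TCT initiator they were 31 of 36 (86.1%) and 46 of 57 (80.7%), against 42% and 36.3% over all genes. For CGATA they were 58 of 66 (87.9%) and 19 of 27 (70.4%), against 44.4% and 29.4%. For motif 1 they were 9 of 14 (64.3%) and 68 of 79 (86.1%), while over all genes the order was opposite, with 60.9% and 34.4%. Unbound carriers of motif 1 included RpL6, RpL22-like, RpS9 and sta. By subunit, the DRE was in 33.3% of small-subunit and 27.8% of large-subunit promoters, and the TCT letters in 35.9% and 40.7%. Main copies carried the TCT letters in 34 of 80 cases and paralogs in 2 of 13.

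Within 100 bp of the summit, the DRE was found at 22 of the 77 summits (28.6%), against 12% of all summits of bound genes, and CGATA at 51 (66.2%, against 46.8%). The DRE nearest to the TSS had a median position of −54 bp (quartiles −71.5 and −36.8) in the 28 promoters. A DRE lay within 50 bp of the summit in 14 of the 77 genes.

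Genes that act in making ribosomes were listed as a second group, with 34 genes of nucleolar processing, export and RNA polymerase I. Of these, 26 (76.5%) were bound, against 36.4% of all genes, with a mean over replicates of 71.6% ± 7.4 (SD, n = 3). Their median signal was 574. The highest belonged to eIF6, which keeps the large subunit from joining too early, with 5183 at −93 and rank 29, followed by Ns2, a nucleostemin-family GTPase, with 3241. Fib, the ribosomal RNA methyltransferase fibrillarin, had 1574 and nop5, a box C/D snoRNP protein, had 1428. Unbound were Dbp73D, Mat89Ba, Ns1, Ns3, Polr1A, ppan, vito and wcd. With nearest genes alone the count was 16 of 34 (47.1%), against 28.2% of all genes. The signals of eIF6 and Ns2 were higher than that of any ribosomal protein gene. At eIF6 and nop5 the TSS closest to the summit was the gene's own. At Ns2 and Fib it belonged to a neighbour, so their signals cannot be assigned to these genes alone.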

How the data were processed

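Peak lists from ChIP-seq of 3 replicates of a single group were used, on assembly dm6. Per the labels, chromatin was sonicated to 200 to 800 bp. The aligner and caller were not given in the sources used here. Each deposited peak has a score (the authors' scaled IDR, the irreproducible discovery rate, at most 1000) and a signal value, the authors' enrichment of that peak. The deposited ranked lists also give the −log10 of the global IDR, whose smallest value in the conservative list was 2.00, a threshold of 0.01. Of the peaks of that list, 99.8% had the interval and signal of a peak in the pooled ranked list, so its signal values are those of a pool, and the replicates are not independent of it. The description files derive it from all 3 replicates, and intervals copied in its ranked list matched replicates 1 and 2, which is an inference. Read numbers are not in the peak lists, so the depth is unknown and intervals cannot be computed. A longer list can come from depth or enrichment.

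Peaks outside the arms (3 in replicate 2 and 27 in replicate 3) were left out. TSSs (19630) came from all transcripts in Ensembl release 115 (BDGP6.54), and motifs from the RefSeq sequence of that assembly. Promoter sequence was read by coordinates. Python 3.11.15 and matplotlib 3.10.9 were used. The assignment of summits to genes was tested on simulated data. The members, classes and gene lists were chosen with earlier results of these data known. A few genes are counted but not reported by name here. Named are the 8 strongest and 5 weakest genes, those without a summit, all in paralog sets, the stalk genes, sta and up to 6 genes not in every replicate, with others said to be chosen afterwards. Paralogs were taken from published knowledge of the gene family. No test was run, since there is a single group.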

Additional observations from a re-analysis of the deposited data

Results flagged for a closer look

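A promoter summit of RpL13A, with a signal value of 252, was in the ranked list of replicates 1 and 2 at the same IDR as the conservative list but was not in the thresholded list. Further promoter summits appeared in the pooled thresholded list, which the counts above do not use, at genes that the conservative list leaves unbound. Their signal values were 68.3 for RpL6, 99.2 for RpS14a, 80.2 for RpS3 and 146 for sta.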

How the results depend on the processing

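Of the alternatives, 88 values stayed within 1.5 times the count or 1 SD of the value reported, 14 moved and none reversed. The alternatives for the ribosome production genes and the TCT letters were chosen after seeing the data. At a global IDR of 0.001, 3 of 13 paralogs were bound (23.1%, against 29.2% of all genes) and the median percentile was 56.7. With the pooled list it was 71.6. With peaks that overlap all 3 replicates, by 1 bp or by 50% of the width, 2 paralogs (15.4%) were bound in either case. The shares of all genes were 28.7% and 25.2%, and the median percentile of the ribosomal protein genes was 53.9 and 51.3. Restricting to genes with no other TSS in the window, which also reduces the genes counted, left 45 bound genes, 18 of the small and 27 of the large subunit, 44 main copies and 1 paralog. The mean share over replicates was 93.2% with the full ranked lists. Counting the nearest gene alone left 16 ribosome production genes. The percentile is a share of each list's own peaks, so it also depends on which peaks a list keeps. Apart from the count and this definition, the cause of these shifts was not tested. Leaving out each replicate in turn, the mean share was 72.6% to 77.4%. In lists without replicate 1 or 2, 75 genes (80.6%) were bound in each, against 35.6% and 37.5% of all genes. They included 29 to 30 of the small and 45 to 46 of the large subunit, 69 to 71 main copies and 4 to 6 paralogs. Their median percentile was 64.0 to 65.5, their median position −84 to −83 and the ribosome production genes numbered 26 to 27. These lists share the pooled signal values. No paired analysis was possible because there is a single group. Depth is unknown, so an unbound gene is one without a promoter summit in the thresholded list, not one without Row. RpL13A has such a summit in the ranked list at the same IDR.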
